A study of Mus musculus with 10 samples.

Results

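The enteroendocrine hormones and granins are 10 genes: the granins Chga and Chgb and the peptide hormone genes Sct, Gip, Cck, Ghrl, Gcg, Pyy, Sst and Tac1. They were taken by symbol, and all 10 were found among the 24016 gene symbols of a deposited table of nascent transcription. The table comes from organoids, small epithelial cultures grown in a gel, made from mouse duodenum. ENRI organoids were kept in a medium that the labels assign to enterocytes, the absorptive cells of the villus, and that holds EGF, Noggin, R-spondin and IWP-2, a blocker of Wnt secretion. WENRC organoids were kept in a stem cell medium that also held EGF, Noggin and R-spondin, had Wnt3A and CHIR-99021, an activator of Wnt signalling, and had no IWP-2. The labels used here give no genotype, strain, age or time in the medium. Engaged polymerases were measured by GRO-seq, in which nuclei extend the RNA they are making, in 2 libraries per medium, and the histone mark H3K27me3 by ChIP-seq in 1 library per medium. The titles of the GRO-seq samples number the mice 1 and 2 in both media, and the authors' file header gives the libraries as batch 1 and batch 2.

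Enteroendocrine cells are scattered hormone-secreting cells of the gut epithelium that arise from crypt stem cells through the transcription factor Neurog3. They store peptide hormones with granins in dense core granules and release them when nutrients reach the gut lumen. Secretin, GIP, cholecystokinin and ghrelin are made mainly in the stomach and proximal bowel, while glucagon-like peptides, from Gcg, and peptide YY are made mainly in the distal bowel. H3K27me3 is written by Polycomb repressive complex PRC2, the subject named in the series title, and is common at promoters of genes that a tissue does not transcribe.

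The promoters of 6 members are printed because the results below turn on them: Tac1 and Sst had H3K27me3 near the start in every deposited region list, Chga and Chgb had it in the ENRI lists alone, and Sct and Gip had the largest differences in nascent transcription among the members tested. Each sequence runs 5′ to 3′ along the gene's strand, from 250 bases before to 50 bases after the RefSeq start, and capitals mark CG pairs. The sequences are RefSeq's in build GRCm38.p6, at chr6:7554811-7555110 (plus strand) for Tac1, chr16:23890795-23891094 (minus strand) for Sst, chr12:102554691-102554990 (plus strand) for Chga, chr2:132781392-132781691 (plus strand) for Chgb, chr7:141279084-141279383 (minus strand) for Sct and chr11:96024295-96024594 (plus strand) for Gip. The deposited files use build mm9, whose positions are not comparable with these.
Tac1: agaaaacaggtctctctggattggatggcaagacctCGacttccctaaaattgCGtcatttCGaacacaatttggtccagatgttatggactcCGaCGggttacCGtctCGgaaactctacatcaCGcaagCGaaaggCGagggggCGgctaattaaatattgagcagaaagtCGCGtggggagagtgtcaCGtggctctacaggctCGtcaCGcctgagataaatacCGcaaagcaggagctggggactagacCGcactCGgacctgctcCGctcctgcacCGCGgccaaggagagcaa
Sst: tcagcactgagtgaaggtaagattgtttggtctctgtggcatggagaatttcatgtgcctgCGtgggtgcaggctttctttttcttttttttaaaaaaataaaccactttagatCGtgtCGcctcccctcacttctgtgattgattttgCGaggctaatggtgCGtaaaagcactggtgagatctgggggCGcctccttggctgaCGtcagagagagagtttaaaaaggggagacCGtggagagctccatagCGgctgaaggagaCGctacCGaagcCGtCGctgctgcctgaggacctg
Chga: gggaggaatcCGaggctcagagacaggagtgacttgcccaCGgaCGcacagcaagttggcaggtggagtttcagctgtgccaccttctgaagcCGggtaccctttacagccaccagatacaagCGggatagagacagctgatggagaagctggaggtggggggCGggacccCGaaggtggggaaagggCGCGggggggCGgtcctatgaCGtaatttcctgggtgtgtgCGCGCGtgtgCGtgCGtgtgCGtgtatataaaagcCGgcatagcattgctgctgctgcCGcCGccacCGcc
Chgb: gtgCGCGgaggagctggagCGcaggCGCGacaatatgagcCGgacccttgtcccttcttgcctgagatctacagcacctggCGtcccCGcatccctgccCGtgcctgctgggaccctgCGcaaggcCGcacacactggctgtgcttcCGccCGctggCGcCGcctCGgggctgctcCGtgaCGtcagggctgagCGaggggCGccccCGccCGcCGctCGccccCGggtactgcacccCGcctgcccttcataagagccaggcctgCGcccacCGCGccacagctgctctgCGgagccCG
Sct: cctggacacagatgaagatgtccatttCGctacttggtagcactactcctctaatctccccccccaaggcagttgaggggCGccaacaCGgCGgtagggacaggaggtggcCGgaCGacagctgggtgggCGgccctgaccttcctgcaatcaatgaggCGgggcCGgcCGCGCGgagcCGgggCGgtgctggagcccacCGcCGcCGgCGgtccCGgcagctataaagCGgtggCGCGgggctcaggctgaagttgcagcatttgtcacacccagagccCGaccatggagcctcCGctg
Gip: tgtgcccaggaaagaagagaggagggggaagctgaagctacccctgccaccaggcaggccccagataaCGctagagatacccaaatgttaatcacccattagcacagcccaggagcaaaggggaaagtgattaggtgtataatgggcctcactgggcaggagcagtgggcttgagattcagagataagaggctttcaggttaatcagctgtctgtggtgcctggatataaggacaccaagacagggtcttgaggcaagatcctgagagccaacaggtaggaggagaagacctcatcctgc

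These windows differed widely in CG pairs. The Chgb window held 31 CG pairs, the Sct window 24, the Tac1 window 22, the Chga window 21 and the Sst window 13, against 1 in the Gip window. The windows not printed held 10 for Cck, 8 for Pyy, 7 for Gcg and 1 to 3 for the 4 RefSeq starts of Ghrl. The letters TATAAA, the core of the TATA box, were found on either strand in the windows of 3 of 10 members, Chga, Gcg and Sct. They were found in 13.6% of the 32851 mouse windows of the same length. The first match began at 5 in Chga, which is after the start, at -72 in Gcg and at -28 in Sct. The Gcg window held 2 matches. That at -72 was on the opposite strand, and the other, nearer the start, was on the gene's own strand. The letters TGACGTCA, the full cAMP response element, which reads the same on both strands, were found in the windows of 2 of 10 members, Chgb and Sst, and in 1.79% of all windows. They began at -72 from the start in Chgb and at -48 in Sst. No member's window held both. A match is a description of letters and not of a bound factor.

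Depth set what could be seen. The GRO-seq libraries held 29128101 and 15787828 recovered reads in ENRI batches 1 and 2 and 25839484 and 9245915 in WENRC batches 1 and 2. Of these, the 10 members took 1286 and 1315 reads in ENRI and 1020 and 687 reads in WENRC. Levels below are RPKM, the reads of a transcript scaled for its length in kb and for the column total. Markers of the labelled cell types moved with the media. All 10 enterocyte markers had both ENRI libraries above both WENRC libraries, where 15.1% of all genes did. Their summed levels were 604 and 855 RPKM in ENRI, against 53.8 and 25.4 RPKM in WENRC. Of 9 stem cell markers, 8 had both ENRI libraries below both WENRC libraries, where 33.4% of all genes did. Summed levels of the 9 were 11.3 and 5.82 RPKM in ENRI, against 34.8 and 48.6 RPKM in WENRC. Limma was run on 11602 genes, and at a Benjamini-Hochberg adjusted p under 0.05 it called 17 of them, of which 7 had the higher level in ENRI, and it called 0 with the batch as a replicate block. In bulk cultures, fewer cells of a type and less RNA per cell cannot be told apart, and the spread within a medium is that between mice as the titles number them and between batches, which cannot be told apart.

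Among the 10 members, transcription was led by Ghrl, Sct and Chgb. Their mean levels over the 4 libraries were 2.53, 2.45 and 2.40 RPKM, and these neighbours in the order did not differ beyond their spread. Chga followed at 0.758 and Gip at 0.574 RPKM, then Tac1 at 0.330, Cck at 0.253, Sst at 0.0706, Gcg at 0.0217 and Pyy at 0.00785 RPKM. Each gene's range over the libraries overlapped that of the next in the order, apart from Chgb and Chga. Even the highest member stood at the 73.6th percentile of tested genes. The summed level of the 10 members was 7.98 and 14.2 RPKM in ENRI and 6.26 and 9.19 RPKM in WENRC, so the media overlapped and batch 2 was the higher in each. Members at 0.5 RPKM or more in at least 2 libraries were tested, which took in 5 of 10: Chga, Chgb, Sct, Gip and Ghrl. Gip passed that filter through its ENRI libraries alone. With limma, 0 members passed the adjusted p, where the background was 0.147% of genes tested. At an unadjusted p under 0.05 the count was 1 member, Sct, where 12.0% of genes tested were higher in ENRI at that level. The edgeR quasi-likelihood test on recovered reads called 0 members, where it called 5.13% of genes as higher in ENRI, and DESeq2 called 1, Sct, where it called 14.7% of genes as higher in ENRI. In 4 members both ENRI libraries were above both WENRC libraries, Sct, Gip, Chga and Sst, where 15.1% of all genes were so placed. Sst was so placed on 3 and 4 reads in ENRI, against 0 and 0 reads in WENRC. In 0 members both ENRI libraries were below, where 33.4% of all genes were. The median log2 change of the 5 tested members was 0.22, 4 being higher in ENRI and 1 lower, against a median of -0.21 over all genes tested, of which 34.3% were higher. That median of all genes lay at -0.04 with quantile normalization and near 0 with the scaling of edgeR and DESeq2, so members' changes are to be read relative to it.

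**Figure D1:**
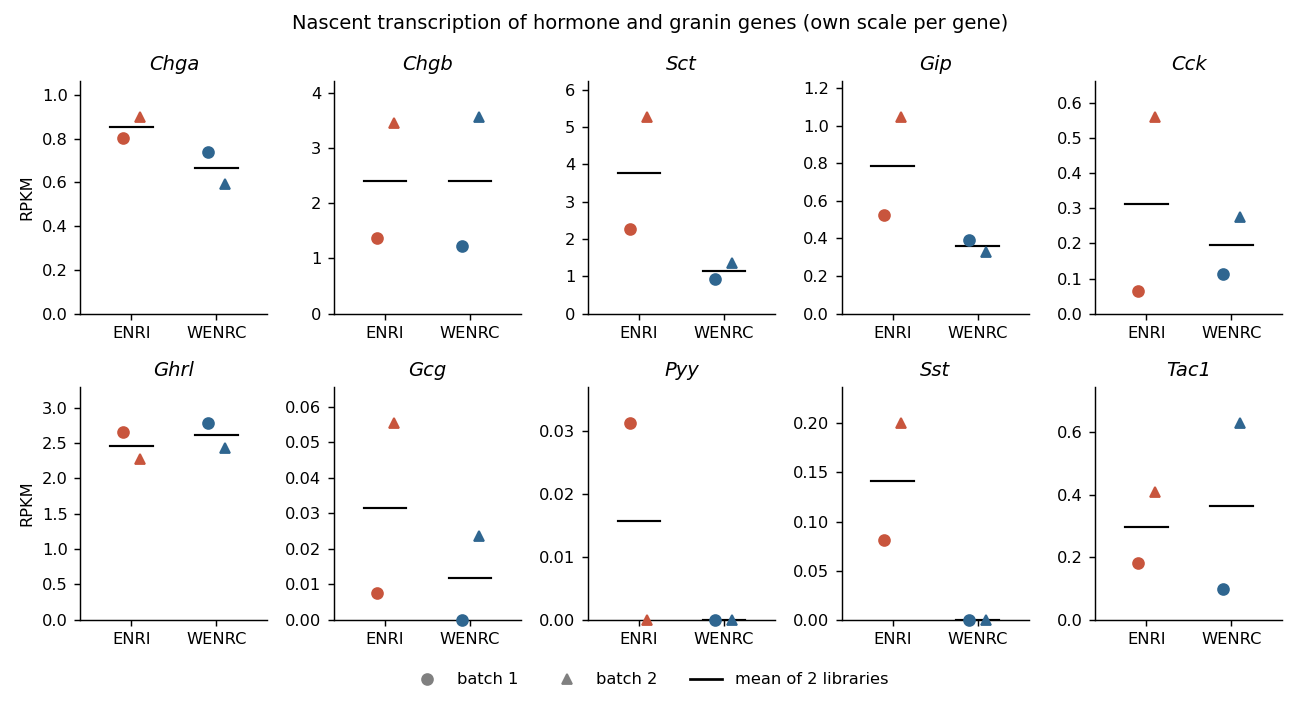
Nascent transcription of each member in RPKM, on a scale of its own, with ENRI libraries on the left and WENRC libraries on the right of each panel; points are libraries, with circles for batch 1 and triangles for batch 2, and bars are means of 2. In the panels of Sct, Gip, Chga and Sst both ENRI points lie above both WENRC points, for Sst on 3 and 4 reads against 0 and 0. In the panels of Chgb, Cck and Tac1 the batch 2 points are the higher in both media.

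Sct encodes secretin, the hormone of duodenal S cells that draws bicarbonate from the pancreas. The longest transcript in the table, NM_001287171, spans 148464228 to 148465032 on the minus strand of chromosome 7 in mm9. It had 53 and 67 reads in ENRI batches 1 and 2, against 19 and 10 reads in WENRC, which is 2.26 and 5.28 RPKM against 0.915 and 1.35 RPKM. Both ENRI libraries were higher than both WENRC libraries, and the ENRI pair was the more spread. The log2 change was 1.31 ± 0.41 (SE), with limma's adjusted p = 0.0962. Within a batch, ENRI stood at 2.47 times the WENRC level in batch 1 (95% counting interval 1.44 to 4.43) and at 3.92 times in batch 2 (2.01 to 8.55). The call of Sct depended on the setting: DESeq2 gave 2.06 on the log2 scale (adjusted p = 0.0332), the limma fit without ENRI batch 1 gave 1.84 with an adjusted p of 0.0133, and the fit without ENRI batch 2 gave 0.77 with an adjusted p of 0.0862. Without WENRC batch 1 limma gave 1.11 with an adjusted p of 0.395, and without WENRC batch 2 it gave 1.50 with an adjusted p of 0.414. With a filter of 10 recovered reads, added after seeing the data, DESeq2 gave 2.04 with an adjusted p of 0.144, which ends its call. In the authors' deposited table Sct had a log2 fold change of 1.86 with an FDR of 0.0487, and it was the only member past 0.05 there, where 5.65% of genes were called as higher in ENRI.

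No annotated gene overlapped Sct or any other member. The nearest to Sct was Cdhr5, a brush border cadherin gene that lies 1543 bp beyond the end of Sct on the same strand. It had 9.26 and 12.1 RPKM in ENRI, against 3.54 and 2.85 RPKM in WENRC, a log2 change of 1.59 ± 0.24 (SE) with limma's adjusted p = 0.0560. Thus the neighbour also had both ENRI libraries above both WENRC libraries, and its part in the reads over Sct was not tested. The strand setting of the authors' counting is not stated, so reads from either strand may be included.

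Gip encodes the glucose-dependent insulinotropic peptide of K cells, which raises insulin release after a meal. Its transcript NM_008119 spans 95885859 to 95892142 on the plus strand of chromosome 11 in mm9. It had 96 and 104 reads in ENRI, against 64 and 19 reads in WENRC, which is 0.525 and 1.05 RPKM against 0.394 and 0.327 RPKM. The groups did not overlap, and ENRI batch 2 stood apart from the other 3 libraries. The log2 change was 0.55 ± 0.24 (SE), with limma's adjusted p = 0.164. Within batch 1 the ratio of ENRI to WENRC was 1.33 (95% counting interval 0.960 to 1.86), and within batch 2 it was 3.21 (1.95 to 5.54). Without ENRI batch 1, limma gave Gip 0.85 on the log2 scale (adjusted p = 0.0159), and without ENRI batch 2 a change of 0.25 with an adjusted p of 0.198. In the fit without ENRI batch 1, 15.6% of genes tested were called as higher in ENRI, and the lone ENRI library was assumed to vary like the WENRC pair. The authors' deposited table gave Gip a log2 fold change of 1.25 with an FDR of 0.199.

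Chga encodes chromogranin A, the acidic granule protein used as a general marker of endocrine cells. Its transcript NM_007693 spans 103793179 to 103803237 on the plus strand of chromosome 12 in mm9. It had 235 and 143 reads in ENRI, against 192 and 55 reads in WENRC, which is 0.802 and 0.901 RPKM against 0.739 and 0.591 RPKM. Both ENRI libraries were above both WENRC libraries by a narrow margin. Mean levels were 0.851 ± 0.0696 RPKM in ENRI and 0.665 ± 0.104 RPKM in WENRC (SD, n = 2 each). The log2 change was 0.22 ± 0.13 (SE), with limma's adjusted p = 0.282. The within-batch ratio of ENRI to WENRC was 1.09 in batch 1 (95% counting interval 0.893 to 1.32) and 1.52 in batch 2 (1.11 to 2.12), and the authors' deposited table gave a log2 fold change of 0.60 with an FDR of 0.522.

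Chgb encodes chromogranin B, its granule partner, and was marked by a difference between batches and not between media. Its transcript NM_007694 spans 132607014 to 132620808 on the plus strand of chromosome 2 in mm9. It had 550 and 750 reads in ENRI batches 1 and 2, against 435 and 455 reads in WENRC, which is 1.37 and 3.44 RPKM against 1.22 and 3.57 RPKM. The batch 2 libraries of both media were high and the batch 1 libraries of both media low, so the groups overlapped. The log2 change between media was 0.04 ± 0.57 (SE), with limma's adjusted p = 0.969, and it turned to -0.50 without ENRI batch 2 and to -0.58 without WENRC batch 1. The within-batch ratios of ENRI to WENRC were 1.12 (95% counting interval 0.987 to 1.27) and 0.965 (0.858 to 1.09) in batches 1 and 2. Between batches, batch 2 stood at 2.52 times batch 1 in ENRI (2.25 to 2.81) and at 2.92 times in WENRC (2.56 to 3.34). The authors' deposited table, whose test had batch as a term, gave Chgb a log2 fold change of 0.30 with an FDR of 0.765.

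The same order of batches was seen in Cck and Tac1. Of the 7 members with a read in every library, 3 had batch 2 at 2-fold or more of batch 1 in both media. Among tested genes, which include Chgb, 0.301% did so, while among genes below the filter, which include Cck and Tac1, 30.6% did. Over all tested genes the median ratio of batch 2 to batch 1 was 0.950 in ENRI and 0.981 in WENRC. The column names carry a run name of their own for each batch, shared by both media, and neither they nor the labels say what a batch is.

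Ghrl encodes ghrelin, the appetite hormone of the stomach and upper bowel, and was the steadiest of the tested members. Its longest transcript, NM_021488, spans 113666113 to 113669905 on the minus strand of chromosome 6 in mm9. It had 293 and 136 reads in ENRI, against 273 and 85 reads in WENRC, which is 2.65 and 2.27 RPKM against 2.79 and 2.42 RPKM. The groups overlapped, with batch 1 the higher in both media. The log2 change was -0.07 ± 0.16 (SE), with limma's adjusted p = 0.774, and its sign turned with the scaling, to 0.078 with median centring and 0.19 with edgeR and DESeq2. The within-batch ratios of ENRI to WENRC were 0.952 (95% counting interval 0.805 to 1.13) and 0.937 (0.709 to 1.24) in batches 1 and 2. The authors' deposited table gave a log2 fold change of 0.16 with an FDR of 0.935. The protein-coding genes most like Ghrl, by Euclidean distance of log2 levels over the 4 libraries, were Msl1 at 0.0886, Azi2 at 0.0917 and Psma4 at 0.0928.

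**Figure D2:**
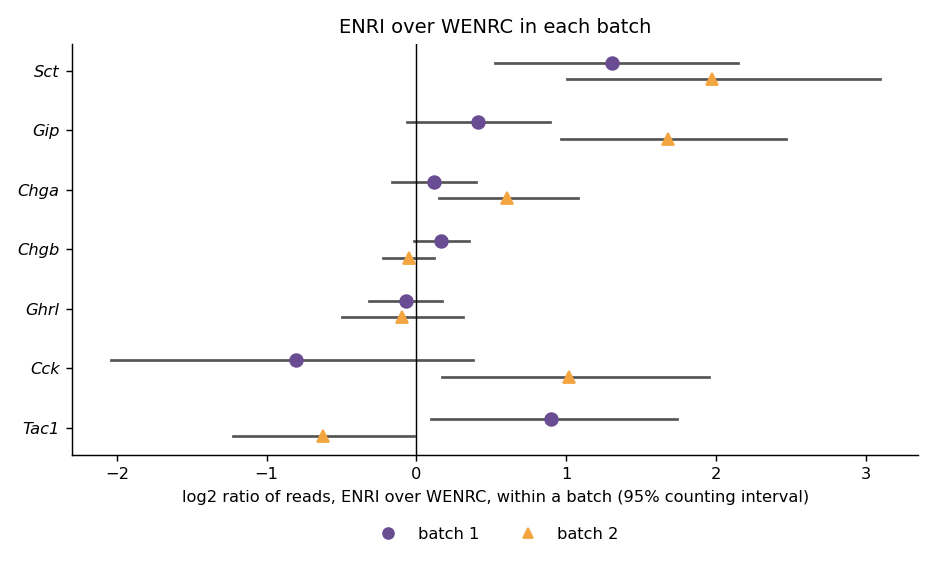
The log2 ratio of depth-scaled reads in ENRI to those in WENRC within batch 1 (circles) and within batch 2 (triangles) for the 7 members with a read in every library, with lines for 95% counting intervals. Both intervals of Sct lie right of 0, those of Ghrl and Chgb span 0 in both batches, and those of Tac1 lie on opposite sides of 0.

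The other members were too little transcribed for the test. Cck encodes cholecystokinin, the I cell hormone that contracts the gall bladder, and its transcript NM_001284508 spans 121398942 to 121404812 on the minus strand of chromosome 9 in mm9. It had 11 and 52 reads in ENRI, against 17 and 15 reads in WENRC, which is 0.0643 and 0.561 RPKM against 0.112 and 0.276 RPKM. ENRI held both the highest and the lowest library. The within-batch ratio of ENRI to WENRC was 0.574 in batch 1 (95% counting interval 0.243 to 1.30) and 2.03 in batch 2 (1.13 to 3.88), and batch 2 stood at 8.72 times batch 1 in ENRI (4.50 to 18.5) and 2.47 times in WENRC (1.15 to 5.25).

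Tac1 encodes the precursor of substance P, made by serotonin-secreting enterochromaffin cells and by neurons. Its transcript NM_009311 spans 7505071 to 7512973 on the plus strand of chromosome 6 in mm9. It had 42 and 51 reads in ENRI, against 20 and 46 reads in WENRC, which is 0.182 and 0.409 RPKM against 0.0979 and 0.630 RPKM. The ENRI levels lay between the WENRC levels. The ratio of ENRI to WENRC was 1.86 in batch 1 (95% counting interval 1.07 to 3.35) and 0.649 in batch 2 (0.427 to 0.989), while batch 2 stood at 2.24 times batch 1 in ENRI (1.46 to 3.45) and 6.43 times in WENRC (3.73 to 11.5).

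Sst, Gcg and Pyy were at the limit of detection. Sst encodes somatostatin, the D cell peptide that inhibits neighbouring endocrine cells, and spans 23889667 to 23890930 on the minus strand of chromosome 16 in mm9. It had 3 and 4 reads in ENRI, against 0 and 0 reads in WENRC. A count of 0 allows up to 3 reads, which is 0.0919 and 0.257 RPKM in WENRC batches 1 and 2, against ENRI levels of 0.0816 and 0.201 RPKM, so a difference was not detectable at this depth. The authors' deposited table gave Sst a log2 fold change of 4.70 with an FDR of 0.0948, a value that rests on those reads and on how counts of 0 were treated.

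Gcg, the precursor of glucagon-like peptides, spans 62312587 to 62321710 on the minus strand of chromosome 2 in mm9. It had 2 and 8 reads in ENRI, against 0 and 2 reads in WENRC, and its ratio of ENRI to WENRC in batch 2 was 2.34 (95% counting interval 0.467 to 22.6). Pyy, which encodes the appetite-lowering peptide YY, spans 101967991 to 101969090 on the minus strand of chromosome 11 in mm9, and had 1 and 0 reads in ENRI, against 0 and 0 reads in WENRC. Counts of 0 allow Pyy levels of up to 0.173 RPKM in ENRI batch 2 and up to 0.106 and 0.295 RPKM in WENRC. The intervals and limits given here cover counting error only, since PCR reads are not independent molecules. In the authors' deposited table the log2 fold changes were 0.41 for Cck, 0.35 for Tac1, 1.97 for Gcg and 2.33 for Pyy, with FDR values from 0.395 to 0.856.

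H3K27me3 at the promoters divided the members into 3 that had it in all 4 region lists, 4 that had it in some and 3 that had it in none. Each medium has a broad and a narrow list of regions, called by the authors in 1 library against input DNA, so the media are set side by side with no test. A promoter was 2 kb either side of the start, and 1 bp of overlap marked it. In ENRI, 5 of 10 members were marked in the broad list, where 8.76% of all genes were, and 6 of 10 in the narrow list, where 19.6% were. In WENRC, 4 of 10 were marked in the broad list, where 10.5% of all genes were, and 5 of 10 in the narrow list, where 17.8% were. At least 1 list marked 7 of 10 members and 23.5% of all genes, and all 4 lists marked 3 of 10 members and 5.87% of all genes. Of the 5 members below the transcription filter, 4 were marked in at least 1 list, against 37.1% of all genes below it. Of the 5 tested members, 3 were marked, against 8.9% of all genes tested.

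Pyy, Sst and Tac1 were marked in all 4 lists. Around Pyy the broad region was 13700 bp long in ENRI with 4.26-fold enrichment over input, against 10121 bp and 5.68-fold in WENRC, and it covered the whole gene in both. Around Tac1 it was 3227 bp long with 7.16-fold enrichment in ENRI, against 5332 bp and 5.32-fold in WENRC. Sst had the shortest regions, 1292 bp with 4.45-fold enrichment in ENRI, against 1569 bp and 4.20-fold in WENRC. Fold over input and length are the authors' values per region. In the narrow ENRI list, Sst was marked through a 500 bp region that ends 1822 bp before the start, and with at least 500 bp of overlap required it was not marked there.

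Chga and Chgb were the members with a broad region in ENRI and none in WENRC at the promoter, as were 2.66% of all genes. The ENRI region of Chga ran from position -1572 to position 5091 relative to the start, 6663 bp in all, with 4.71-fold enrichment over input. In WENRC the nearest broad region was 333810 bp from the Chga start, and the nearest narrow region began 4178 bp after it. The ENRI region of Chgb was 1501 bp long with 5.46-fold enrichment, and in WENRC the nearest narrow region was 13868 bp away. Beside these regions, Chga had both ENRI libraries above both WENRC libraries in transcription, and Chgb averaged 2.41 ± 1.47 RPKM in ENRI and 2.39 ± 1.66 RPKM in WENRC (SD, n = 2 each).

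Cck was the 1 member with a broad region in WENRC and none in ENRI at the promoter, as were 4.38% of all genes. That WENRC region was 7734 bp long with 5.82-fold enrichment over input, and covered 89.5% of the gene. In ENRI no broad region lay within 202669 bp of the Cck start, yet the narrow ENRI list held a 5667 bp region across it with 6.51-fold enrichment, against 7755 bp and 5.98-fold in the narrow WENRC list. The narrow lists thus marked Cck in both media. Normalised tags in these narrow regions were 139.1 in ENRI and 183.2 in WENRC, on the authors' scale of equal total tags. The regions cover unlike stretches, from position -784 to position 4883 in ENRI and from -2591 to 5164 in WENRC. A second narrow ENRI region at the Cck promoter ran from -4021 to -1800, with 29.5 normalised tags.

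Gip was marked in the narrow WENRC list alone, by a 500 bp region that began 1430 bp after the start and had 4.58-fold enrichment. It was not marked with a promoter of 1 kb either side, or when regions were limited to scores at or above the median of their list. Sct, Ghrl and Gcg were marked in no list, as were 76.5% of all genes. The nearest regions lay 11016 to 11950 bp from the Sct start. Ghrl and Sct were the members with the highest mean levels, and Gcg had between 0 and 8 reads per library.

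**Figure D3:**
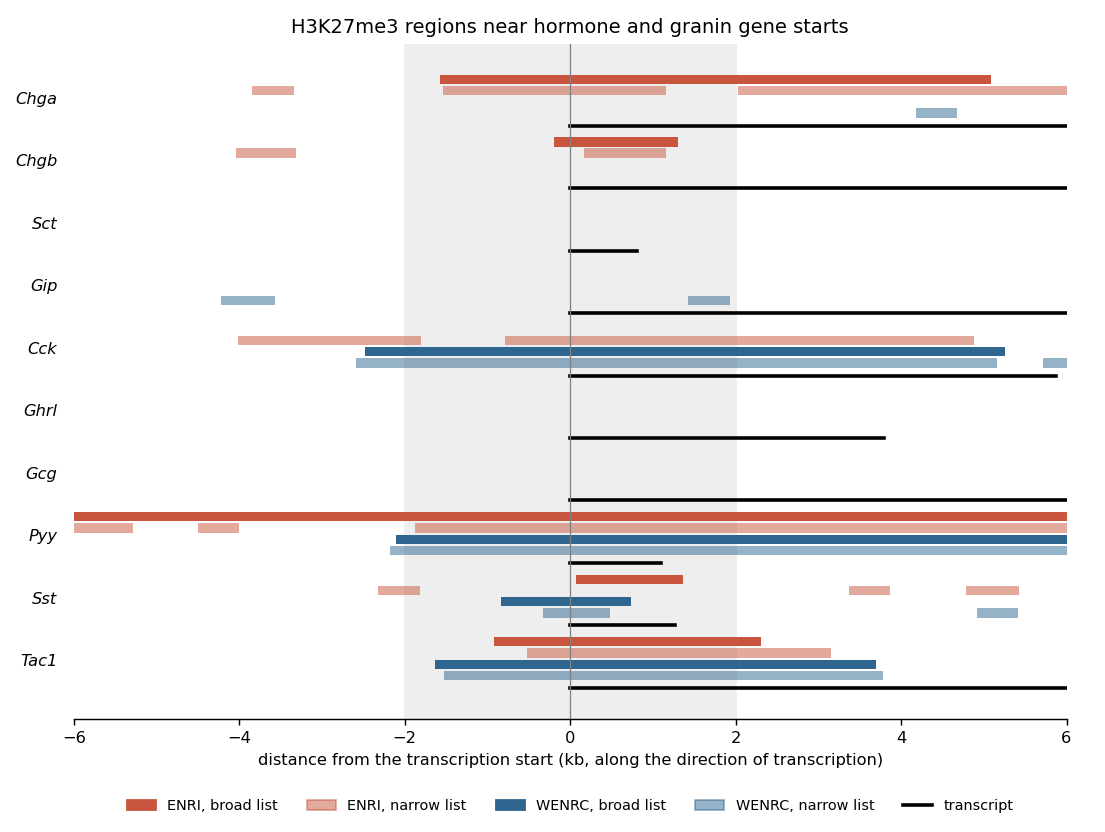
Deposited H3K27me3 regions within 6 kb of each member's start, along the direction of transcription in kb, with ENRI lists (red) above WENRC lists (blue), broad lists in full colour and narrow lists in pale colour, the transcript in black and the promoter of 2 kb either side shaded. Pyy, Sst and Tac1 have regions of both media at the start, Chga and Chgb of ENRI alone, and Sct, Ghrl and Gcg have none.

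The CG pairs in the printed windows can be set beside the lists. Over the 16820 genes matched by symbol between the tables, the median window held 19 CG pairs where all 4 lists marked the promoter (quartiles 10 to 29, 974 genes), 11 where 1 to 3 lists did (5 to 23, 2944 genes) and 14 where none did (3 to 24, 12902 genes). Tac1, with 22, lay within the quartiles of the first of these classes and Sst, with 13, did too, while Pyy, with 8, lay below them. Sct, with 24 CG pairs and no region, was at the upper quartile of the unmarked class, and Ghrl, with 1 to 3, was at or below its lower quartile. Chgb, with 31, lay above the upper quartile of its class.

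**Figure D4:**
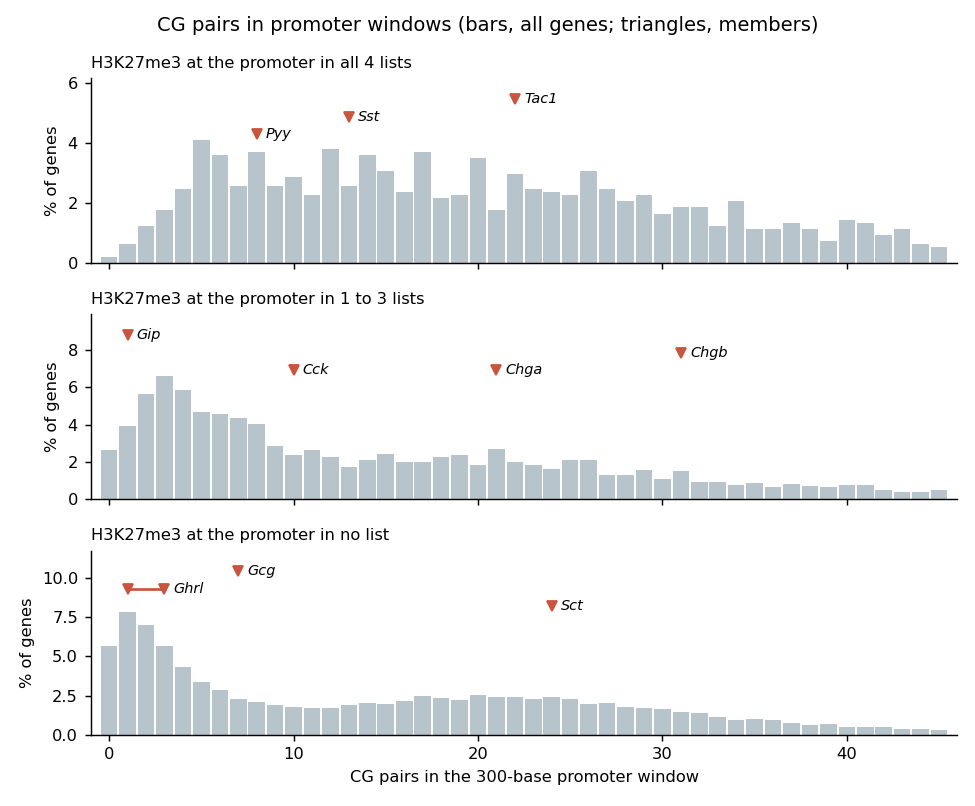
Percent of genes by the number of CG pairs in the 300-base promoter window (bars), in 3 classes by the number of region lists that mark the promoter, with triangles for the members (height has no meaning) and a line where a gene has several starts. Members of each class are spread along the axis, from Pyy at 8 to Tac1 at 22 among genes marked in all 4 lists and from Gip at 1 to Chgb at 31 among those marked in 1 to 3 lists.

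Genes of serotonin handling, the amine product of gut endocrine cells, had the higher levels in ENRI in 5 of 8 cases without overlap, with 0 past limma's adjusted p. The 8 include the transcription factors Fev and Lmx1a, named after their values were seen, whose media overlapped. Both are also counted among the lineage factors below. Of 8 such genes, 3 were tested, 1 of which, Slc18a1, passed the filter through its ENRI libraries alone, and all 3 had a log2 change above 0, with a median of 1.11, against 34.3% of genes higher and a median of -0.21 over all genes tested. Both ENRI libraries of the 5 lay above both WENRC libraries, where 15.1% of all genes were so placed. Maoa, the oxidase that breaks serotonin down, had 3.49 and 7.92 RPKM in ENRI, against 0.501 and 0.530 RPKM in WENRC, a log2 change of 2.51 ± 0.39 (SE) with limma's adjusted p = 0.0560. Ddc, the decarboxylase that forms serotonin, had 1.64 and 3.14 RPKM in ENRI, against 0.804 and 0.775 RPKM in WENRC, a change of 1.11 ± 0.29 (SE) with limma's adjusted p = 0.0749. Both genes are also transcribed by absorptive cells, whose markers were higher in ENRI in sum as given above, and the part of those cells was not tested.

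Slc18a1, which loads amines into endocrine granules, had 0.753 and 1.17 RPKM in ENRI, against 0.328 and 0.416 RPKM in WENRC, a log2 change of 0.73 ± 0.19 (SE) with limma's adjusted p = 0.0756. The authors' deposited table called these 3 of the 8 genes as higher in ENRI, where 5.65% of all genes were. The log2 fold changes there were 3.59 for Maoa, 1.77 for Ddc and 1.59 for Slc18a1. Tph1, the first enzyme of serotonin synthesis in the gut and chosen here after its values were seen, had 120 and 109 reads in ENRI, against 40 and 35 reads in WENRC. Its levels of 0.148 and 0.247 RPKM in ENRI did not overlap those of 0.0555 and 0.136 RPKM in WENRC.

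Among transcription factors of the endocrine lineage, 0 passed limma's adjusted p. Of 26, 9 were tested, 3 being higher and 6 lower in ENRI (median log2 change -0.38), a split near that of all genes tested, of which 34.3% were higher (median -0.21). In 13 of 26 both ENRI libraries were below both WENRC libraries, where 33.4% of all genes were. In 0 both were above, where 15.1% were, while in the other 13 the media overlapped. The 26 take in factors not confined to the lineage, such as Hes1, named after its values were seen. Hes1 was among those below. The largest changes were those of Sox4 at -1.56 ± 0.71, Foxa1 at -1.20 ± 0.37, Foxa2 at -1.02 ± 0.12 and Mnx1 at -0.92 ± 0.18 (log2, SE), with limma's adjusted p from 0.0560 to 0.179. Mnx1 passed the filter through its WENRC libraries alone. Neurog3, the factor that commits crypt cells to the endocrine fate and chosen here after its values were seen, had 2 and 1 reads in ENRI, against 33 and 4 reads in WENRC. Its WENRC levels of 0.763 and 0.259 RPKM lay above the ENRI levels of 0.0409 and 0.0380 RPKM, and the WENRC reads came mostly from batch 1. The authors' deposited table called 3 of the 26 as lower in ENRI, where 3.06% of genes were: Neurog3 with a log2 fold change of -3.41, Mnx1 with -2.42 and Hhex, named after its values were seen, with -2.09. The promoters of 20 of 26 were marked in at least 1 region list. Of all genes 23.5% were, with 37.1% of those below the transcription filter and 8.9% of those tested. The broad ENRI list marked 13 of 26, against 8.76% of all genes, and the broad WENRC list marked 14, against 10.5%.

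**Figure D5:**
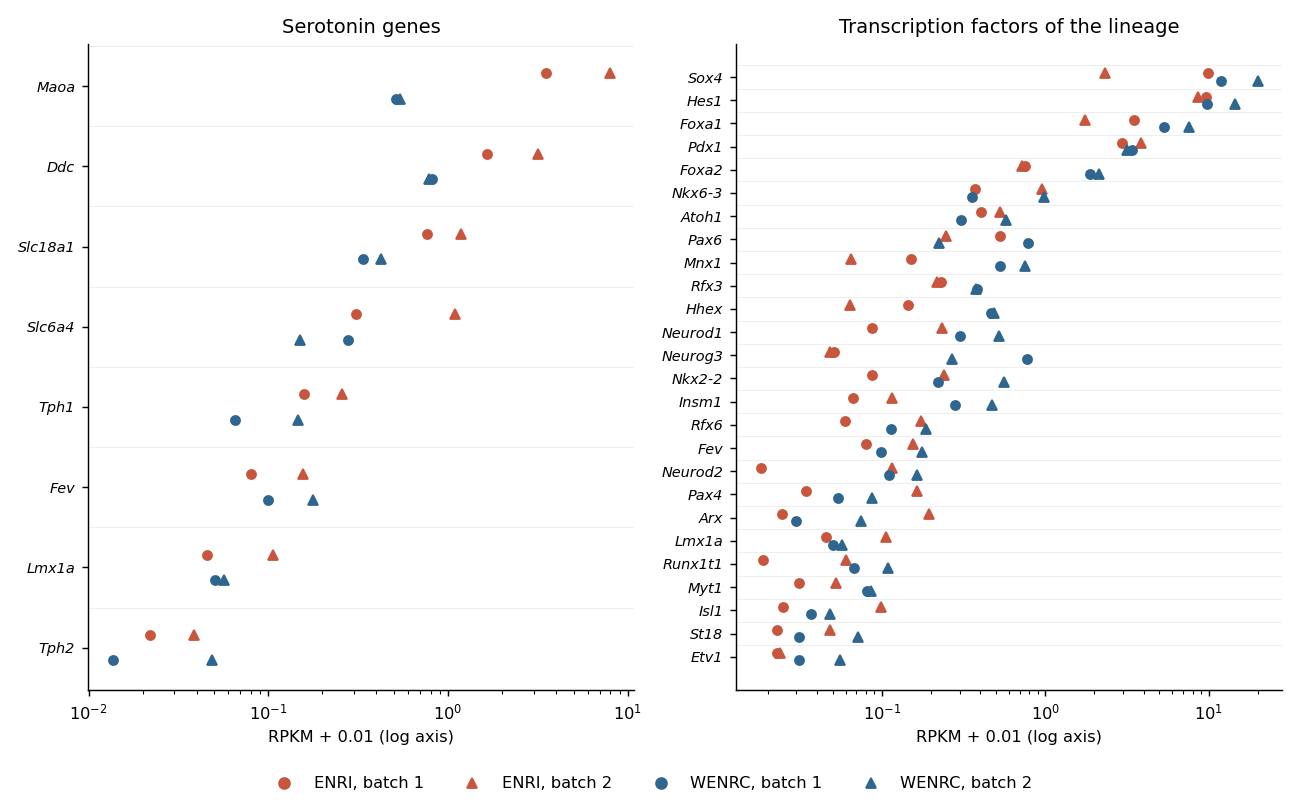
Level of each serotonin gene (left) and each transcription factor of the lineage (right) in RPKM + 0.01 on a log axis, with ENRI libraries in red above WENRC libraries in blue, and circles for batch 1 and triangles for batch 2. The ENRI points of Maoa, Ddc and Slc18a1 lie right of their WENRC points, while those of Neurog3, Hhex, Mnx1, Foxa1 and Foxa2 lie left of theirs.

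Genes that cut and store the hormones were few among those tested. Of 11 processing genes, 3 were tested, 2 being higher and 1 lower in ENRI (median log2 change 0.44), and 0 passed limma's adjusted p. Over all genes tested, 34.3% were higher and the median was -0.21. Furin, a proprotein convertase, had 2.51 and 2.54 RPKM in ENRI, against 1.86 and 1.55 RPKM in WENRC, a log2 change of 0.46 ± 0.15 (SE) with limma's adjusted p = 0.0997. Pcsk1, the convertase of gut endocrine cells, was below the filter with 0.155 and 0.104 RPKM in ENRI, against 0.137 and 0.178 RPKM in WENRC, so its groups overlapped. Mboat4, which acylates ghrelin, had 13 and 7 reads in ENRI, against 27 and 13 reads in WENRC, and the ENRI levels of 0.0440 and 0.0437 RPKM lay below those of 0.103 and 0.138 RPKM in WENRC. Pcsk1 and Mboat4 were named after their values were seen.

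Of 22 dense core granule genes, 6 were tested, 2 being higher and 4 lower in ENRI (median log2 change -0.14), near the 34.3% higher and the median of -0.21 over all genes tested, and 0 passed limma's adjusted p. The 2 higher were Slc18a1, given above, and Vamp2. Rab3d, a granule GTPase, changed by -0.60 ± 0.20 and Vgf, a granin relative, by -0.47 ± 0.18, while Vamp2, a vesicle fusion protein, changed by 0.60 ± 0.26 (log2, SE). Limma's adjusted p for these genes ran from 0.108 to 0.168. The promoters of 12 of 22 were marked in at least 1 region list, against 23.5% of all genes. The share was 37.1% of genes below the filter and 8.9% of genes tested.

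Several members are also transcribed outside the gut epithelium, so markers of those cells were read in the same libraries. Of 12 markers of enteric neurons and glia, 1 passed the filter, S100b, with a log2 change of 0.20. Their summed level was 1.28 to 1.78 RPKM in ENRI and 1.46 to 1.54 RPKM in WENRC. In 2 of 12 both ENRI libraries were above both WENRC libraries, where 15.1% of all genes were. In 4 both were below, where 33.4% of all genes were, and in 6 the media overlapped. Both counts were near those shares. Ret, a receptor of the enteric nervous system, had 269 and 260 reads in ENRI, against 88 and 43 reads in WENRC. The authors' deposited table gave Ret a log2 fold change of 1.87 with an FDR of 0.00267. Ret was the only call there among the 12, where 5.65% of all genes were called as higher in ENRI. The glial factor Sox10 had 48 and 33 reads in ENRI, against 77 and 47 reads in WENRC, and the neuronal marker Uchl1 had 0 and 0 reads in ENRI, against 1 and 1 reads in WENRC. The insulin genes Ins1 and Ins2 had 0 reads in each of the 4 libraries. Of 7 mesenchymal markers 1 was tested, and their summed level was 0.931 and 0.876 RPKM in ENRI and 1.50 and 1.03 RPKM in WENRC. Of 7 immune markers 1 was tested, Cd68, and their summed levels were 5.79 and 5.80 RPKM in ENRI and 14.0 and 17.5 RPKM in WENRC. Cd68 made up most of these sums, with 5.25 and 5.47 RPKM in ENRI, against 13.1 and 16.5 RPKM in WENRC. Of the 7 immune markers, 0 had both ENRI libraries above both WENRC libraries, where 15.1% of all genes did. In 3 both were below, where 33.4% of all genes were, and in 4 the media overlapped. Ptprc, the general leukocyte marker, overlapped, with 9 and 72 reads in ENRI, against 0 and 13 reads in WENRC. The authors' deposited table gave Ptprc a log2 fold change of 2.60 with an FDR of 0.0316. It called 2 of the 7 as lower in ENRI, Cd68 at -1.21 (FDR 0.0481) and Mzb1 at -3.73 (FDR 0.00959), where 3.06% of all genes were. Ptprc was the 1 call as higher among the 7, where 5.65% of all genes were. Ret, Sox10, Uchl1, Ins1, Ins2, Ptprc and Mzb1 were named after their values were seen.

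Other secretory cells of the epithelium were read in the same way, beside the 15.1% of all genes with both ENRI libraries above and the 33.4% with both below. Of 8 goblet cell markers, 5 had both ENRI libraries above both WENRC libraries and 2 had both below, with summed levels of 46.5 and 30.7 RPKM in ENRI and 10.2 and 7.52 RPKM in WENRC. Muc2, the gel-forming mucin, changed by 2.08 ± 0.12 with limma's adjusted p = 0.0374 and Zg16, a lectin of mucus granules, by 4.82 ± 0.30 with an adjusted p of 0.0394 (log2, SE), and both passed the filter through their ENRI libraries alone. Of 7 Paneth cell markers, 0 had both ENRI libraries above and 2 had both below, with summed levels of 10.6 and 25.2 RPKM in ENRI and 16.4 and 26.3 RPKM in WENRC, so batch 2 was the higher in both media. Of 8 tuft cell markers, 1 had both ENRI libraries above and 4 had both below, with summed levels of 1.10 and 0.701 RPKM in ENRI and 1.48 and 1.76 RPKM in WENRC. The part of these cell types in the members' values was not tested.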

How the data were processed

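Per the file headers, the authors counted GRO-seq reads over RefSeq gene bodies in mm9 with HOMER and tested ENRI against WENRC in edgeR with batch as a term. The deposited scaled read signal, whose 4 columns each sum to 20.0M, was converted to whole reads by dividing by the value of 1 read (100% of low values whole within 0.1). Per the submitters' processing notes, Bowtie, Bowtie2, FastQC and HOMER 4.3 were used. RPKM was computed from the deposited signal and transcript length, with the longest transcript per symbol, and the authors' deposited RPKM columns are not used here. Log2 fold changes and p-values or FDR of the authors' deposited table are positive where ENRI was higher. H3K27me3 regions, with a deposited score, tag signal and ratio (fold) over input, are the authors' HOMER calls for each library, which required 4-fold over input, per the file headers.

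Genes reaching 0.5 RPKM in 2 or more libraries were tested with limma 3.58.1 (R 4.3.3) on log2(RPKM + 0.5), moderated with a mean trend, with no block, and called at a Benjamini-Hochberg adjusted p under 0.05. The scale understates changes of low genes. Columns were assigned to medium and batch, and not to a mouse. The titles number the mice alike in both media and the header numbers the batches, which pairs the libraries, and deviations of paired libraries from the group means correlated at 0.0126 across genes. Alternatives were other pseudocounts, filters, scalings, transcripts, the batch as a replicate block, edgeR 4.0.16 and DESeq2 1.42.0 on recovered reads, and each library left out. Ratio intervals are exact binomial intervals at 95%. The samples of input DNA and of histone H3 are not used here. Strand setting and coordinate base are not stated.

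The members and gene lists were chosen with earlier results of these data known. Named were all 10 members and, per list, genes past the test and the largest changes up to 4, with exceptions marked as chosen after their values were seen. Results for some marker genes are not reported here. Promoter windows of all 10 members (14 windows) were matched by symbol in RefSeq's GRCm38.p6 table.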

Additional observations from a re-analysis of the deposited data

Results flagged for a closer look

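The ratio of ENRI to WENRC for Tac1, the substance P precursor, pointed in opposite directions in the batches. It was 1.86 in batch 1 (42 reads in ENRI and 20 in WENRC, 95% counting interval 1.07 to 3.35) and 0.649 in batch 2 (51 reads in ENRI and 46 in WENRC, 0.427 to 0.989). The difference between the batches was not tested, and its cause was not tested either. The H3K27me3 libraries, which have no batch number, marked the Tac1 promoter in both media.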

How the results depend on the processing

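The count of genes called across the table depended on the setting, and the cause was not tested. It was 17 with limma, 1 with a pseudocount of 0.1, 0 without a filter, 1491 with a filter of 10 recovered reads, 929 with quantile normalization, 881 with edgeR and 2738 with DESeq2. With the batch as a replicate block it was 0 with limma and 777 with edgeR, and the block changed no member's call. Fits added after seeing the data, with the 10-read filter, called 0 (edgeR), 315 (edgeR with the replicate block) and 2285 genes (DESeq2). Leaving out each library gave 0 to 5794 genes. Unadjusted p-values under 0.05 were 4521 with limma, 5201 without a filter, 3839 with limma's block and 3999 with edgeR and the 10-read filter.

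Members called were 0 with limma, 1 with DESeq2 (Sct) and 0 to 2 on leaving out each library; the 2, Sct and Gip, came without ENRI batch 1. The other settings called 0. Chgb ran from -0.58 to 0.66 on leaving out libraries, with -0.50 and -0.58 as the reversed values. Ghrl reversed to 0.078 with median centring, 0.19 with edgeR, its replicate block and DESeq2, and 0.16 (edgeR), 0.16 (edgeR with the block) and 0.18 (DESeq2) with the 10-read filter, and it ran from -0.16 to 0.024 on leaving out libraries, the highest without ENRI batch 2. Sct, Gip and Chga stayed higher in ENRI under the settings reported here. Of the promoter counts, the narrow WENRC list marked 3 members in place of 5 when limited to scores at or above the median, and the others stayed within 1.5 times. A fit on the deposited RPKM columns was run and is not reported here, since 1 measure per library was kept. Depth limits Sst, Gcg and Pyy, with at most 8 reads in a library, and H3K27me3 rests on 1 library per medium.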

Other observations

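Gut hormone genes beyond the 10 members were little transcribed. Of 16, 1 passed the filter, Adm, the vasodilator adrenomedullin, which had 1.77 and 2.00 RPKM in ENRI, against 3.11 and 6.49 RPKM in WENRC, a log2 change of -1.08 ± 0.36 (SE) with limma's adjusted p = 0.107. In 3 of 16 both ENRI libraries were above both WENRC libraries, where 15.1% of all genes were. In 4, Adm among them, both were below, where 33.4% of all genes were, and in 9 the media overlapped. Nts, which encodes neurotensin, and Trh, the thyrotropin-releasing hormone gene, were named after their values were seen. Nts had 36 and 8 reads in ENRI, against 2 and 1 reads in WENRC, and Trh had 7 and 4 reads in ENRI, against 0 and 0 reads in WENRC. The authors' deposited table called both as higher in ENRI, with log2 fold changes of 3.52 for Nts and 5.42 for Trh and FDR values of 0.0140 and 0.0351. Those 2 were the only calls there among the 16, where 5.65% of all genes were called as higher in ENRI. The promoters of 11 of 16, Adm among them, were marked in at least 1 H3K27me3 list. Of all genes 23.5% were, with 37.1% of those below the filter and 8.9% of those tested.

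Receptors for the gut hormones were below the filter. Of 23 receptor genes 0 passed the transcription filter, and 21 of 23 had H3K27me3 at the promoter in at least 1 list, where 37.1% of all genes below the filter did. Sctr, the secretin receptor, named after its values were seen, had 82 and 87 reads in ENRI, against 20 and 16 reads in WENRC, and was marked in all 4 lists. The authors' deposited table called it as higher in ENRI, with a log2 fold change of 2.00 and an FDR of 0.0158. Sctr was the only call there among the 23, where 5.65% of all genes were called as higher in ENRI. It was also the 1 receptor with both ENRI libraries above both WENRC libraries, where 15.1% of all genes were. In 7 of 23 both were below, where 33.4% of all genes were, and in 15 the media overlapped.

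Of 21 nutrient sensor genes, 5 were tested, 3 being higher and 2 lower in ENRI (median log2 change 0.31), and 0 passed limma's adjusted p. Over all genes tested, 34.3% were higher and the median was -0.21. In 2 of 21 both ENRI libraries were above both WENRC libraries, where 15.1% of all genes were. In 3 both were below, where 33.4% of all genes were, and in 16 the media overlapped. Slc5a1, the sodium-glucose cotransporter that enterocytes also make, had 11.6 and 25.3 RPKM in ENRI, against 3.33 and 2.42 RPKM in WENRC, a change of 2.40 ± 0.44 (SE) with limma's adjusted p = 0.0565. Ffar4, a receptor for long-chain fatty acids, had 0.296 and 0.0258 RPKM in ENRI, against 0.577 and 0.743 RPKM in WENRC, a change of -0.84 ± 0.25 (SE) with limma's adjusted p = 0.0921, and passed the filter through its WENRC libraries alone. Trpa1, an irritant-sensing channel of enterochromaffin cells named after its values were seen, had 46 and 86 reads in ENRI, against 3 and 6 reads in WENRC. The authors' deposited table gave Trpa1 a log2 fold change of 3.59 with an FDR of 7.17e-05. It called 2 of the 21 as higher in ENRI, Trpa1 and Slc5a1, where 5.65% of all genes were. It called 1 as lower, Ffar4 at -2.44 (FDR 0.0303), where 3.06% of all genes were.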
